A study of Rattus norvegicus with 6 samples.

Results

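The genes described here encode the chains of laminin, the integrin subunits, the nidogens, agrin and dystroglycan, which build the basement membrane of the nerve and anchor cells to it. They were taken from the table of 30957 genes by symbol: laminin chains (Lama, Lamb or Lamc with 1 digit), integrin alpha and beta subunits, and Nid1, Nid2, Hspg2, Agrn and Dag1. This gave 39 genes, while Hspg2 (perlecan) and Itgad were not found under these symbols and were not analysed here. Of the 39 genes, 38 were among the 15195 genes that passed the filter on low counts. Itgb6 did not pass it, with counts of 0 and 1 in the control group, 8 and 0 at D4, and 0 and 8 at D7.

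RNA was sequenced from the sciatic nerve of 6 Sprague-Dawley rats aged 1 month, with 1 library for each rat and 2 rats in each group. In the D4 and D7 groups the middle of the left sciatic nerve had been crushed with hemostatic forceps 4 or 7 days before. According to the methods of the study, control rats had the same operation without the clamp, whereas the sample labels call them normal controls. Every cell type in the piece of nerve contributed to its library. The libraries of a group are named a and b, and the labels and methods state no link between rats of the same letter. The mRNA tables held between 18727255 and 25350886 counted fragments for each library.

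In a peripheral nerve, each Schwann cell and its axon are enclosed in a basement membrane, a sheet of laminin and type IV collagen linked by nidogens and heparan sulfate proteoglycans. Laminin is a trimer of an alpha, a beta and a gamma chain, and the alpha2 and alpha4 chains with beta1 and gamma1 make the main laminins of the Schwann cell sheet. Schwann cells hold on to it through beta1 integrins, the alpha6 beta4 integrin and dystroglycan, while blood vessels, perineurial cells, fibroblasts and leukocytes carry other integrin pairs.

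Differential expression was tested with the quasi-likelihood test of edgeR in 1 fit of the 6 libraries, and a gene was taken as a DEG when the adjusted p-value was under 0.05 and the change at least 2-fold. Log2 fold changes are given after TMM scaling, with ± for their SE. Against the control group they lie about 0.29 below those from library totals alone, which the FPKM values follow, and between D7 and D4 the shift was 0.0067. At D4, 7 of the 38 genes tested were upregulated (18.4%, against 11.2% of all genes tested) and 5 were downregulated (13.2%, against 10.7%). At D7, 9 were upregulated (23.7%, against 9.83%) and 4 were downregulated (10.5%, against 9.02%). Both comparisons used the same control libraries. Between D7 and D4, 1 gene was lower at D7 and 0 were higher, where 0.494% of all genes tested were lower and 1.68% were higher. Of the 38 genes, 20 were DEGs in none of the 3 comparisons. The median log2 fold change of the 38 genes was -0.09 at D4 and -0.04 at D7, while that of all genes tested was -0.04 and 0.01. Leukocyte integrin subunits made up 5 of the upregulated genes at each day. Without that class, 2 of 32 genes were upregulated at D4 (6.25%) and 4 at D7 (12.5%), and 5 (15.6%) and 4 (12.5%) were downregulated.

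**Figure D1:**
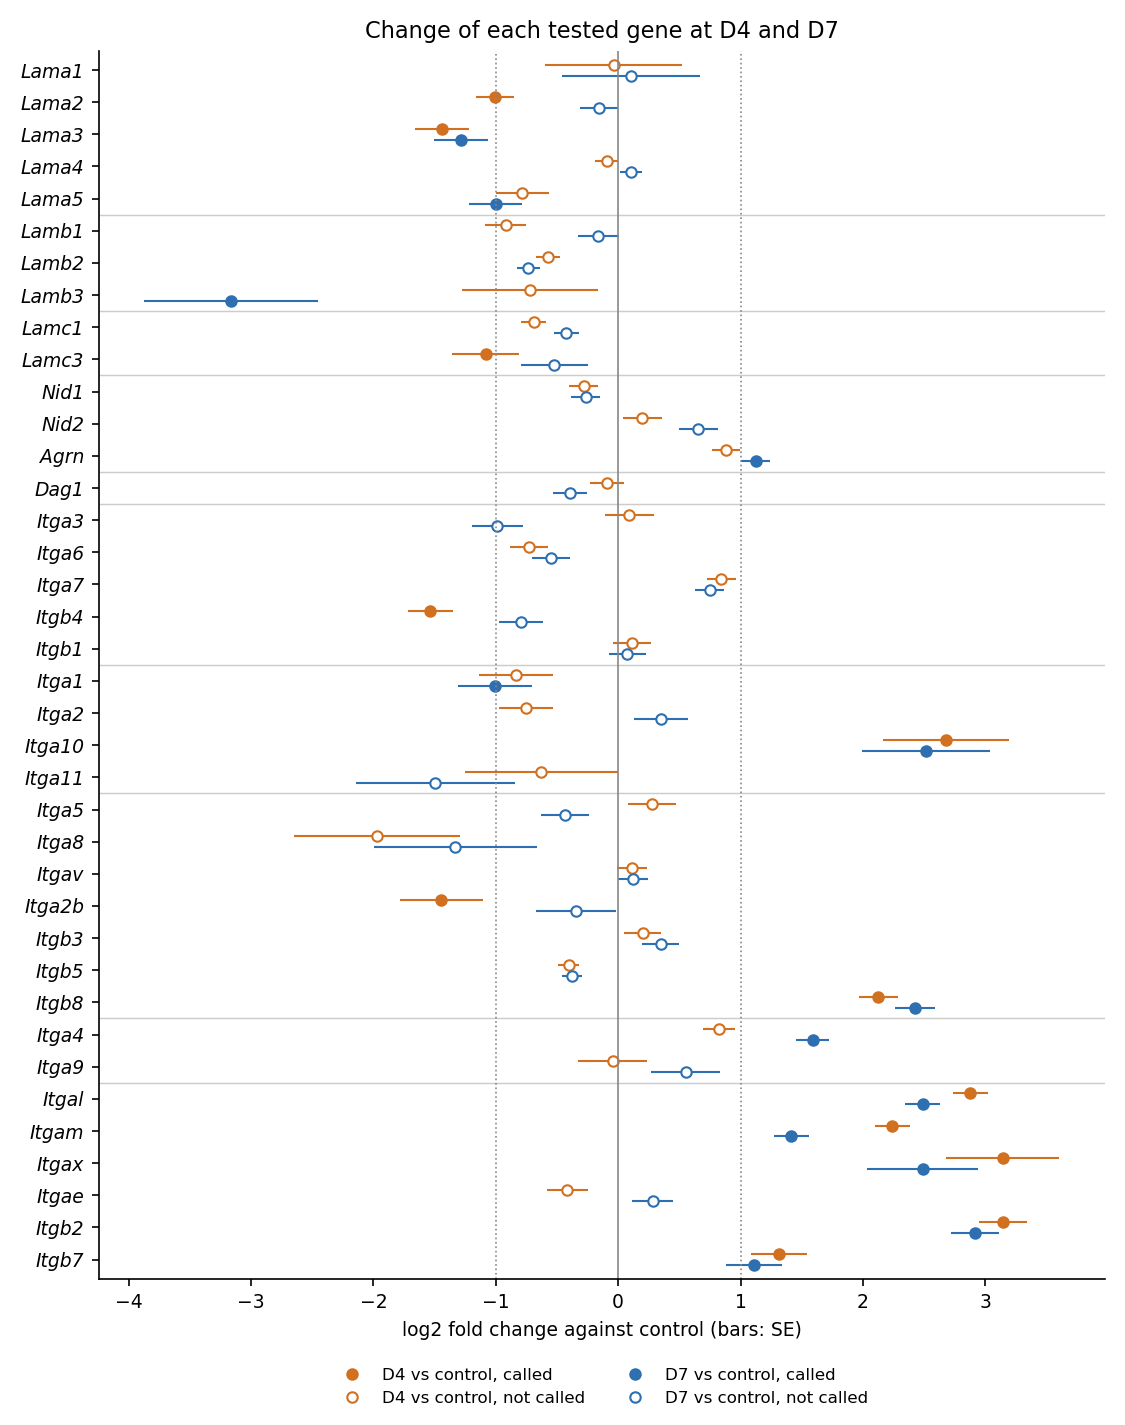
Log2 fold change of each of the 38 tested genes at D4 (orange) and D7 (blue) against the control group, with bars for the SE and filled circles for DEGs; dotted lines mark a 2-fold change and grey lines separate the classes. The leukocyte integrin subunits other than Itgae, and Itgb8 and Itga10, lie past the right dotted line at both days, while the laminin chains lie mostly to the left. Without TMM scaling, Lama1 and Lama4 at D4 and Lama2 and Lamb1 at D7 would lie to the right of 0.

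Markers of the cell types of the nerve moved with the injury, and these values stand beside every class below. The 8 Schwann cell markers were all detected, and their summed level in CPM (counts scaled to library size with the TMM factors) was 25534 and 17205 CPM in the control group, 6113 and 6426 at D4, and 9598 and 7339 at D7. Within that list, Mbp and Prx of myelin fell, whereas Ngfr and Erbb3 rose at both days. The 9 macrophage markers were all detected, and their summed level was 347 and 286 CPM in the control group, 1190 and 1151 at D4, and 772 and 947 at D7; 9 of 9 were upregulated at D4 and 8 of 9 at D7. T and B lymphocyte markers summed to 30.9 to 33.2 CPM in the control group, 88.8 to 99.0 at D4, and 99.5 to 101 at D7. Most of these counts were Cd4 (616 and 470 in the control group, 2284 and 2268 at D4, and 1791 and 1674 at D7), which macrophages of the rat also carry. Cd8a and Cd3e rose at both days, Cd3g fell at D4 (-2.59 ± 0.43), and the B cell markers Cd79a and Cd79b had at most 8 counts in any library. The neutrophil list, in which Elane and Camp had 0 counts in every library, summed to 48.2 and 51.6 in the control group and at most 15.1 in the injured groups, nearly all of it Mpo in every library but D7 a. Mpo was not a DEG (adjusted p = 0.106 at D4 and 0.128 at D7) and had 1 count in D7 a and 295 in D7 b. S100a8 and S100a9 had at most 10 counts in any library. The endothelial markers found (6 of 7) and the perineurial markers (5, with Lypd2 at 0 counts) had lower sums after injury, at 950 and 1609 CPM in the control group, 651 and 576 at D4, and 345 and 564 at D7 for the former and 751 and 555 CPM in the control group, 373 and 342 at D4, and 280 and 283 at D7 for the latter. The perineurial list did not move as 1: Cldn1 fell at both days and Slc2a1 and Krt19 at D7, whereas Msln rose at both days (3.74 ± 0.51 at D4 and 2.27 ± 0.50 at D7). Smooth muscle and perivascular markers set control b apart, at 5269 CPM against 953 in control a and between 508 and 1007 in the injured libraries. Fibroblast markers summed to 55004 and 59709 CPM in the control group and between 28920 and 37271 after injury. Most of these counts were Col1a1 and Col3a1. Of the 5 fibroblast markers, 0 were DEGs at D4 and Col1a1 alone was downregulated at D7. Dcn, Col1a1 and Col3a1 had negative log2 fold changes at both days, Lum had -0.05 ± 0.10 and -0.21 ± 0.10, and Pdgfra had 0.68 ± 0.11 and 0.49 ± 0.11. Adipocyte markers summed to 1315 and 1080 CPM in the control group, 309 and 153 at D4, 7.09 in D7 a and 438 in D7 b. Skeletal muscle markers summed to between 7.24 and 86.6 in all libraries. In bulk RNA, fewer cells of a type and less RNA in each cell cannot be told apart, and the part of cell composition in the results below was not tested.

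**Figure D2:**
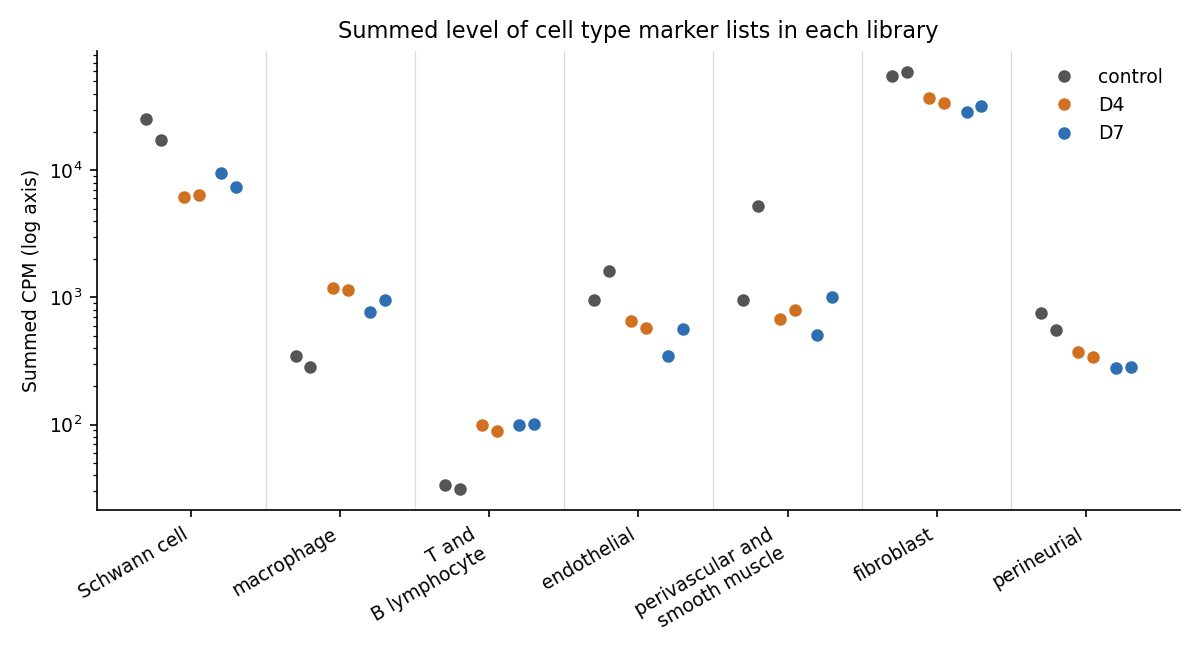
Summed CPM (TMM scaled, log axis) of 7 lists of cell type markers; each point is a library of the control (grey), D4 (orange) or D7 (blue) group. The Schwann cell sum, mostly Mbp and Prx in the control group, is lowest at D4. The macrophage sum is highest at D4, and the perivascular and smooth muscle list is highest in control b.

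Among the laminin alpha chains, Lama2 and Lama4 had by far the highest levels, and their order in FPKM was reversed at D4. Lama2 (ENSRNOG00000011134, chr1:18491384-19143269) encodes the alpha2 chain, the chain of Schwann cell and muscle laminin that is missing in merosin-deficient muscular dystrophy. Its counts were 37371 and 28175 in the control group, 20766 and 25847 at D4, and 38875 and 28859 at D7. Both D4 libraries lay below the control libraries, and the D7 libraries overlapped with the control group. Lama2 was downregulated at D4 (log2 fold change -1.0 ± 0.16, adjusted p = 0.00366) and the value at D7 was -0.16 ± 0.15, adjusted p = 0.458. Tested directly, D7 was above D4 by 0.85 ± 0.16, adjusted p = 0.0422, which was under 2-fold. The D4 change sat on the 2-fold line, and the call was lost in 11 of 14 other settings. These included leaving out control a (-0.91), D4 a (-0.92) or D7 a (-0.97). The difference between D7 and D4 had adjusted p-values of 0.277 without D4 a, 0.221 without D4 b, 0.170 without D7 a and 0.0654 with the replicate block, and without D7 b it came to 1.01, adjusted p = 0.0326.

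Lama4, the alpha4 chain of vessels and immature Schwann cells, had log2 fold changes of -0.09 ± 0.09 at D4 and 0.10 ± 0.09 at D7, neither past the threshold. In FPKM, which compares genes per length, Lama2 stood at 167 ± 11.8 (SD, n = 2) and Lama4 at 126 ± 0.669 in the control group. At D4 the levels were 102 ± 8.29 for Lama2 and 144 ± 5.22 for Lama4, with both D4 libraries in the same order. At D7 they were 184 ± 29.9 and 166 ± 1.43, and the order differed between the D7 libraries, since the ratio of Lama2 to Lama4 was 1.23 in D7 a and 0.986 in D7 b. Lama2 made up 50.0% of the summed alpha chain FPKM in the control group, 37.2% at D4 and 48.9% at D7, and Lama4 37.7%, 52.7% and 44.5%.

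The alpha3 and alpha5 chains, known from epithelial and vascular laminins, were less abundant and lower after injury. Lama3 (ENSRNOG00000011300, chr18:3861539-3940823) had counts of 855 and 498 in the control group, 363 and 338 at D4, and 357 and 277 at D7, and all 4 injured libraries lay below both control libraries. It was downregulated at D4 (log2 fold change -1.44 ± 0.22, adjusted p = 0.00357) and at D7 (-1.28 ± 0.22, adjusted p = 0.00691); without control a the D7 value was -0.98, just under 2-fold. Lama5 (ENSRNOG00000053691, chr3:175553045-175601127) had counts of 6775 and 9181 in the control group, 6443 and 7038 at D4, and 4481 and 4862 at D7, with control b the highest. Its log2 fold change was -0.78 ± 0.22 at D4, under 2-fold, and -1.0 ± 0.22 at D7, where it was a DEG (adjusted p = 0.0151). The D7 call was on the 2-fold line and was lost in 9 of 14 other settings, among them the fit of the 2 groups and the replicate block. The value was -0.63 without control b, the library rich in smooth muscle markers, and -0.88 without D7 a, and it was also just under 2-fold without D4 a. Without control a, Lama5 was a DEG at D4 too, at -1.08. Lama1, the alpha1 chain of early embryos, had between 6 and 15 counts in every library, and its log2 fold changes were -0.04 ± 0.56 and 0.10 ± 0.56.

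**Figure D3:**
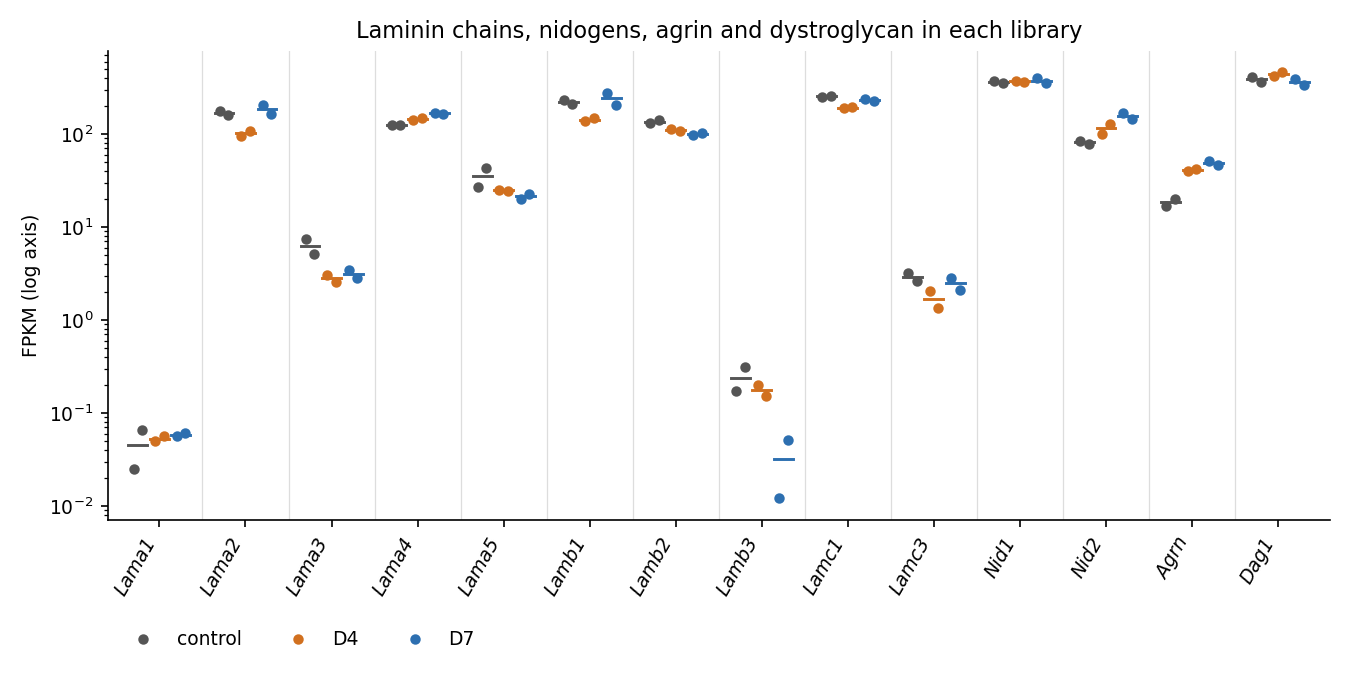
FPKM (log axis) of the laminin chains, nidogens, agrin and dystroglycan in each library; each point is a rat and each short line the mean of a group of 2. Lama2 and Lamb1 are lowest at D4, Lama3 is lower at both days than in the control group, and Agrn is higher at both days.

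Of the beta chains, Lamb1, the partner of the alpha2 and alpha4 chains, had FPKM of 232 and 208 in the control group, 137 and 147 at D4, and 275 and 207 at D7. Its D4 libraries were below all others, and the log2 fold change at D4 was -0.92 ± 0.17, adjusted p = 0.00668, short of 2-fold, and at D7 -0.16 ± 0.17, adjusted p = 0.473. Without control b the D4 value came to -1.02 and passed. Lamb2, the chain of synaptic and vascular laminins, had FPKM of 130 and 141 in the control group, 114 and 108 at D4, and 97.1 and 103 at D7, with log2 fold changes of -0.57 ± 0.10 at D4 and -0.73 ± 0.10 at D7, both under 2-fold at adjusted p-values of 0.00487 and 0.00266. Lamb3 (ENSRNOG00000006025, chr13:112031594-112073186), which pairs with the alpha3 chain in skin, was close to the detection limit, with counts of 16 and 24 in the control group, 19 and 16 at D4, and 1 and 4 at D7. It was downregulated at D7 (-3.16 ± 0.71, adjusted p = 0.0169), a call that was lost without control b (adjusted p = 0.0686) or D7 a (-2.45, adjusted p = 0.084), while without D7 b the value was -4.43.

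Of the summed FPKM of Lamc1 and Lamc3, Lamc1, the gamma chain common to the Schwann cell laminins, made up 98.9% in the control group, 99.1% at D4 and 98.9% at D7. Its FPKM was 252 and 257 in the control group, 190 and 195 at D4, and 240 and 225 at D7, and its log2 fold change was -0.69 ± 0.10 at D4 (adjusted p = 0.00284) and -0.42 ± 0.10 at D7 (adjusted p = 0.0201), both under 2-fold. Lamc3 (ENSRNOG00000059507, chr3:9267122-9326993), the gamma3 chain, had counts of 342 and 232 in the control group, 220 and 160 at D4, and 272 and 187 at D7. It was downregulated at D4 (-1.08 ± 0.27, adjusted p = 0.0216) and not past the threshold at D7 (-0.52 ± 0.27); without control a or D4 b the D4 value was -0.91 or -0.81 and the call was lost.

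The nidogens, which bridge laminin and collagen IV, did not reach 2-fold at either day. Nid1 had FPKM of 375 and 357 in the control group, 372 and 364 at D4, and 399 and 349 at D7, among the highest of these genes, with log2 fold changes of -0.28 ± 0.12 and -0.26 ± 0.12, neither past the threshold, and without TMM scaling they were 0.01 and 0.03. Nid2 had FPKM of 84.8 and 78.3 in the control group, 100 and 129 at D4, and 170 and 144 at D7, with 0.20 ± 0.16 at D4 and 0.65 ± 0.16 at D7 on the log2 scale (adjusted p = 0.0224), short of 2-fold. The ratio of Nid1 to Nid2 FPKM was 4.42 and 4.56 in the control libraries, 3.72 and 2.83 at D4, and 2.35 and 2.41 at D7, and the 3 groups did not overlap.

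Agrn (ENSRNOG00000020205, chr5:173589819-173622645) encodes agrin, a heparan sulfate proteoglycan that binds laminin and dystroglycan and organises the neuromuscular junction. Its counts were 3474 and 3454 in the control group, 8462 and 9894 at D4, and 9500 and 8040 at D7, and every injured library was above both control libraries. It was upregulated at D7 by 1.12 ± 0.12 on the log2 scale, adjusted p = 0.00123; at D4 the value was 0.88 ± 0.12, adjusted p = 0.00204, short of 2-fold. The difference between the days was 0.24 ± 0.12, which did not pass the test.

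Dag1 encodes dystroglycan, the laminin and agrin receptor of the Schwann cell's outer surface. Its FPKM was 411 and 362 in the control group, 422 and 463 at D4, and 388 and 334 at D7, with log2 fold changes of -0.09 ± 0.14 at D4 and -0.39 ± 0.14 at D7 (adjusted p = 0.0681), neither past the threshold. Among 21 tested genes of the dystroglycan complex and its glycosylation, 9 were downregulated at D4 (42.9%, against 10.7% of all genes tested) and 7 at D7 (33.3%, against 9.02%), and 0 were upregulated, with median log2 fold changes of -0.92 and -0.68 against -0.04 and 0.01 for all genes tested. Prx, the periaxin of myelinating Schwann cells, had log2 fold changes of -7.42 ± 0.35 at D4 and -2.54 ± 0.28 at D7, and Drp2, the dystrophin-related protein that joins periaxin to dystroglycan, -6.55 ± 0.46 and -4.10 ± 0.41. Dtna, the dystrobrevin of the complex, had -2.92 ± 0.27 and -1.84 ± 0.25. Prx, Drp2 and Dmd (dystrophin) were the 3 genes of this list that were higher at D7 than at D4, by 4.89 ± 0.31, 2.44 ± 0.38 and 1.03 ± 0.14. Prx is also one of the Schwann cell markers above.

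Of the integrin subunits that bind laminin, Itgb4 fell at D4 and Itga3 was lower at D7 than at D4, while the others did not reach 2-fold. Itgb4 (ENSRNOG00000005580, chr10:104523996-104561078), the beta4 subunit that pairs with alpha6, had counts of 40097 and 28408 in the control group, 15188 and 18387 at D4, and 26827 and 18655 at D7. Both D4 libraries were below all others, and both D7 libraries lay below the control libraries. It was downregulated at D4 (-1.54 ± 0.18, adjusted p = 0.00138); at D7 the value was -0.79 ± 0.18, adjusted p = 0.0178, short of 2-fold, and without D7 a it was -1.0 and passed. The direct difference between the days was 0.74 ± 0.18, adjusted p = 0.0752, and did not pass the test.

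Itga6, the partner of beta4, had FPKM of 420 and 344 in the control group, 266 and 297 at D4, and 345 and 297 at D7, and its log2 fold changes were -0.73 ± 0.16 at D4 and -0.55 ± 0.16 at D7, both under 2-fold at adjusted p-values of 0.0119 and 0.037. Itga7, the laminin-binding subunit known from muscle and from growing axons, had FPKM of 49.3 and 52.6 in the control group, 101 and 122 at D4, and 106 and 103 at D7. Its log2 fold changes were 0.84 ± 0.12 and 0.75 ± 0.12 (adjusted p = 0.0024 and 0.00496), short of 2-fold, with all injured libraries above both control libraries. Without TMM factors Itga7 passed the threshold at both days. The ratio of Itga6 to Itga7 FPKM was 8.51 and 6.54 in controls a and b and 2.44 to 3.24 after injury. Itga6 was the largest share of integrin alpha FPKM in all 3 groups, at 59.7%, 42.4% and 46.3%.

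Itga3 (ENSRNOG00000004276, chr10:82855613-82887497), the alpha3 subunit of epithelia and vessels, was the only gene of the 38 that was a DEG between the days. Its counts were 684 and 794 in the control group, 1096 and 1179 at D4, and 373 and 492 at D7. Its log2 fold change was 0.09 ± 0.20 at D4 and -0.99 ± 0.21 at D7 (adjusted p = 0.0135, just short of 2-fold), and D7 against D4 was -1.08 ± 0.21, adjusted p = 0.0452. That last call was lost without D4 a (adjusted p = 0.255), D4 b (0.228) or D7 a (0.179), and against the control group Itga3 passed at D7 without control a (-1.19) or D7 b (-1.25). Itgb1, the beta1 subunit common to most of these pairs, had FPKM of 196 and 270 in the control group, 307 and 307 at D4, and 290 and 311 at D7 and log2 fold changes of 0.11 ± 0.15 and 0.08 ± 0.15, neither past the threshold.

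**Figure D4:**
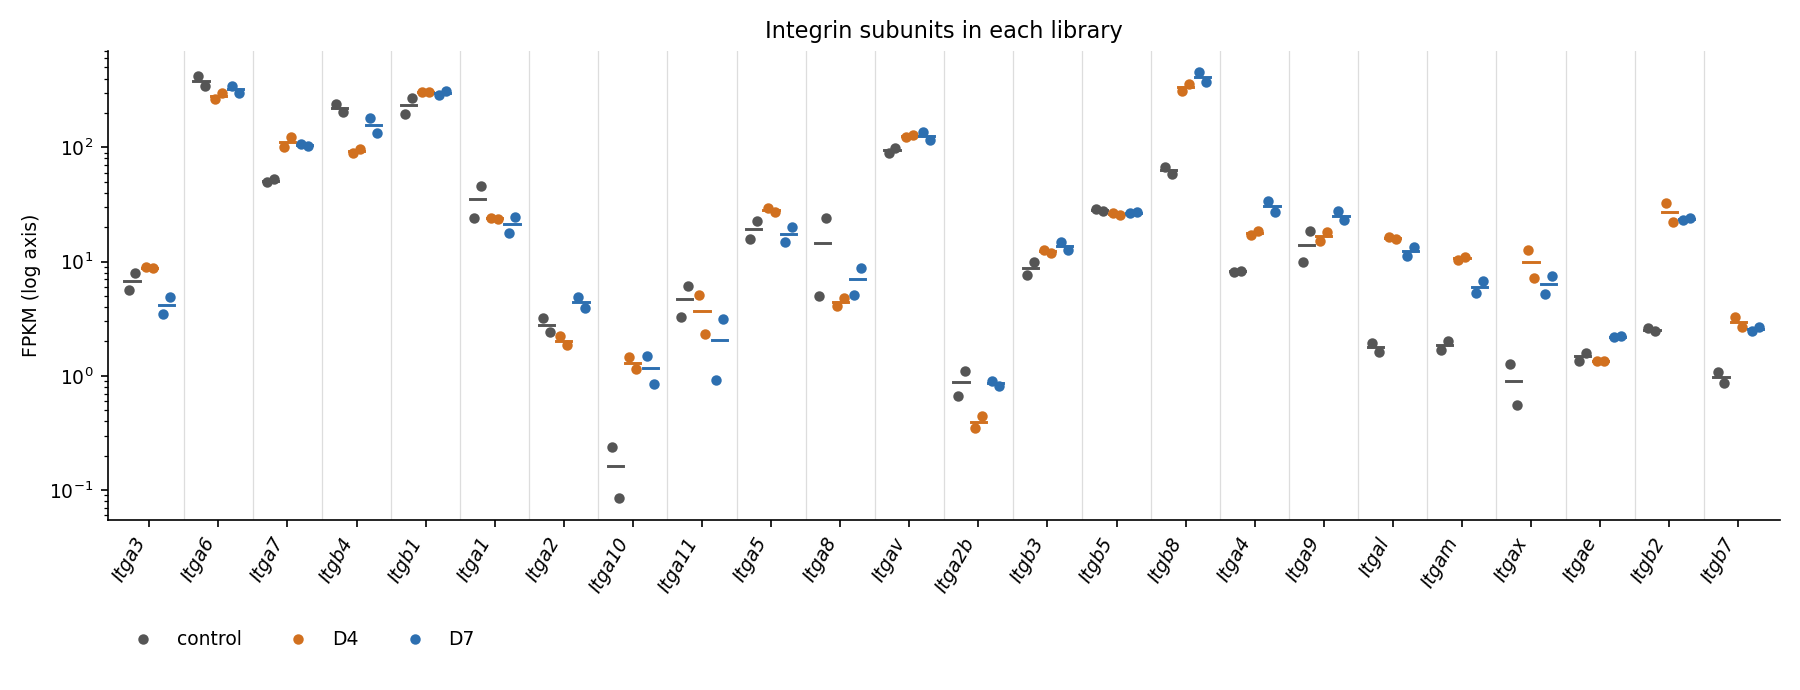
FPKM (log axis) of the 24 integrin subunits tested, in each library; each point is a rat and each short line the mean of a group of 2. Itgb8 and the leukocyte subunits Itgal, Itgam, Itgax, Itgb2 and Itgb7 are higher at both days than in the control group, and Itgb4 is lowest at D4.

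Among the subunits that bind the RGD sequence of fibronectin, vitronectin and latent TGF-beta, Itgb8 rose and the others did not pass the threshold upwards. Itgb8 (ENSRNOG00000006569, chr6:147094097-147172813) encodes the beta8 subunit, which pairs with alphav and releases active TGF-beta from its latent complex. Its counts were 5852 and 4279 in the control group, 27532 and 35521 at D4, and 35472 and 27178 at D7, and the lowest injured library held several times the highest control library. It was upregulated 4.37-fold at D4 (log2 fold change 2.13 ± 0.16, adjusted p = 0.000311) and 5.38-fold at D7 (2.43 ± 0.16, adjusted p = 0.000399), and the calls held in every alternative tried, among them the test against a 2-fold change. Itgav, its only known alpha partner, had FPKM of 90.1 and 99.3 in the control group, 122 and 128 at D4, and 137 and 115 at D7, with log2 fold changes of 0.11 ± 0.12 and 0.12 ± 0.12. In FPKM, Itgb8 was below Itgb1 in both control libraries (ratios of 0.342 and 0.218) and above it in every injured library (1.01 and 1.18 at D4, 1.57 and 1.20 at D7).

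Itgb8 made up 11.3% of the summed integrin beta FPKM in the control group, 41.7% at D4 and 44.1% at D7. Itgb4 went from 39.8% to 11.6% and 16.6%. Itgb1 had means of 41.6%, 38.2% and 32.2%, and its libraries overlapped between the control group (36.1% and 47.1%) and D4 (39.3% and 37.1%). The sum itself was 557 ± 21.9 (SD, n = 2) in the control group, 804 ± 32.6 at D4 and 939 ± 75.9 at D7, with both injured groups above the control group.

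**Figure D5:**
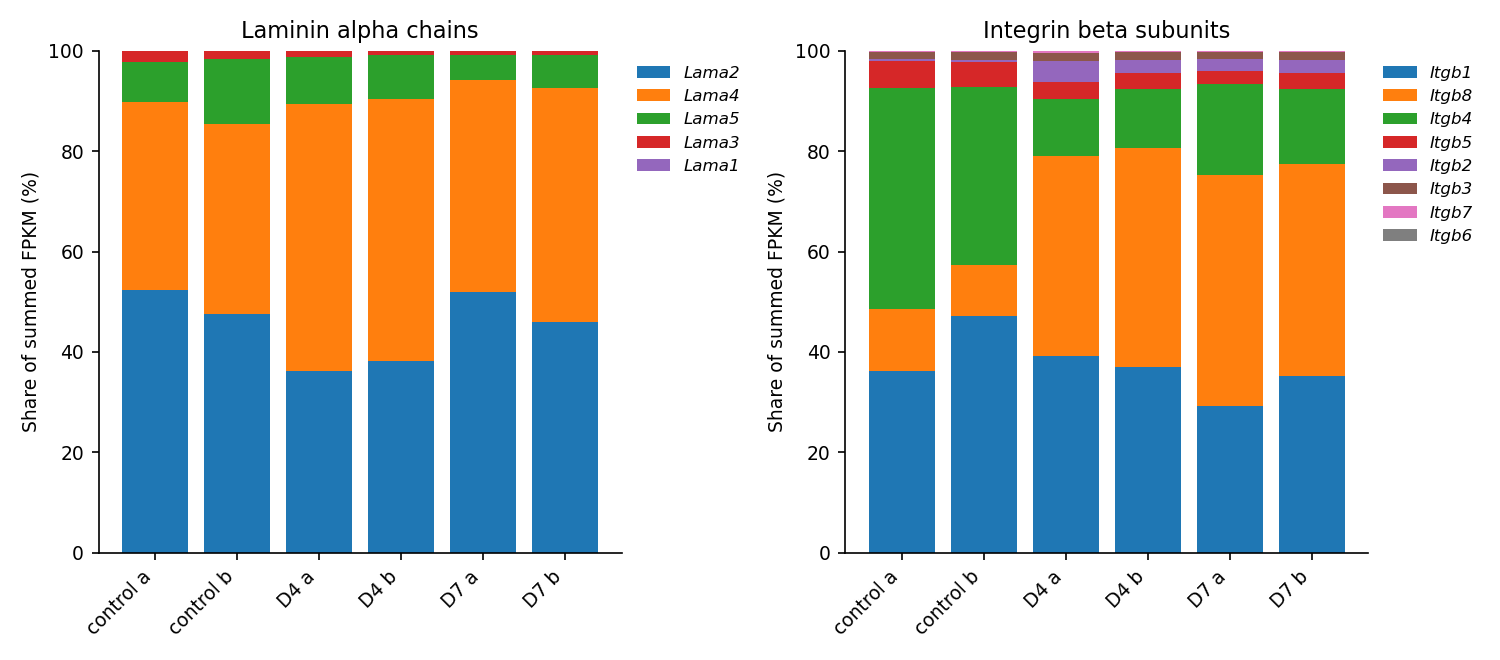
Share of the summed FPKM (%) taken by each laminin alpha chain (left) and each integrin beta subunit (right), with a bar for each library. Lama4 exceeds Lama2 in both D4 libraries, and Itgb8 exceeds Itgb4 in all 4 injured libraries.

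The promoter region of Itgb8 is shown because Itgb8 was the abundant gene outside the leukocyte class that rose at both days. It is the 250 bases before the gene's start in RefSeq, read in gene direction, on the GRCr8 build (the other coordinates here are on Rnor_6.0). Capitals mark matches to 4 motifs searched on both strands: AP-1 (TGANTCA), EGR (GTGGGCG), TEAD (GGAATG) and PU.1 (GAGGAAGT), none of which contains another. The Itgb8 region, chr6:146351246-146351495, minus strand, held 1 EGR and 1 TEAD match.
Itgb8: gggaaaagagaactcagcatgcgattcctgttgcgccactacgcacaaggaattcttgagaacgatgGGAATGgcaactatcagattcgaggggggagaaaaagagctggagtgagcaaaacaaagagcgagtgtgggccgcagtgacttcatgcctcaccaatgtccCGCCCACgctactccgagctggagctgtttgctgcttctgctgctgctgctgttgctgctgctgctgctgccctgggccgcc
Such matches were found in 6.79% (EGR) and 11.8% (TEAD) of 27457 promoters of the same length, and in 6 of the 30 genes described here that had an entry, for each motif. The EGR matches were in Itga2, Itga9, Itgb1, Itgb8, Lamc1 and Nid1, and the TEAD matches in Itga3, Itga10, Itgb1, Itgb8, Lamc1 and Nid1. The median GC content was 59% in these 30 regions and 52% in all promoters, and its part in the share of matches was not tested. The matches are letters in a window, and no binding was measured.

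The promoter regions of Lama3 and Lama2 are shown as 2 alpha chains that fell at D4, with AP-1 matches in capitals. Lama3 (chr18:3952517-3952766, plus strand) held 3 AP-1 matches and Lama2 (chr1:19491896-19492145, plus strand) held none of the 4 motifs.
Lama3: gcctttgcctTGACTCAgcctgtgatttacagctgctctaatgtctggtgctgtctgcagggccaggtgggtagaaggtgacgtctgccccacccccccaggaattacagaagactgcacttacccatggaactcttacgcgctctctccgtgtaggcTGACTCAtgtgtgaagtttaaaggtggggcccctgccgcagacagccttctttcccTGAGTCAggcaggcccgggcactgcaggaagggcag
Lama2: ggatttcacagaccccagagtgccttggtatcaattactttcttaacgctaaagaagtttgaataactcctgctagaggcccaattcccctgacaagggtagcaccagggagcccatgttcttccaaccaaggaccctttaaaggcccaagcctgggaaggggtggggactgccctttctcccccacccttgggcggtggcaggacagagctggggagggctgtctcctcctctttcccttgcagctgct
AP-1 letters were found in 6.36% of all promoters and in 2 of the 30 genes with an entry, Lama3 and Itgax. The regions of Itga6, Itga7, Itgb2, Itgb3, Itgb4, Itgal, Lamb2, Nid2 and Dag1 had no entry.

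Of the other RGD-binding subunits, Itga2b (ENSRNOG00000022071, chr10:90398132-90415070), which pairs with beta3 on platelets, had counts of 55 and 76 in the control group, 29 and 41 at D4, and 65 and 56 at D7. It was downregulated at D4 (-1.44 ± 0.34, adjusted p = 0.017), and the D7 value was -0.34 ± 0.33. The call was lost without control b, D4 a or D4 b (adjusted p = 0.0671, 0.105 and 0.0657). Of the 5 platelet markers, Pf4 alone was tested, with counts of 51 and 46 in the control group, 290 and 286 at D4, and 200 and 235 at D7, and the other 4 had at most 5 counts in any library. Itga5, the fibronectin receptor subunit, had FPKM of 15.9 and 22.6 in the control group, 29.4 and 27.3 at D4, and 14.9 and 19.9 at D7, and its log2 fold changes were 0.28 ± 0.19 and -0.44 ± 0.20. Itga8, known from smooth muscle and mesenchyme, had FPKM of 5.01 and 23.9 in the control group, 4.09 and 4.83 at D4, and 5.13 and 8.83 at D7, with control b, the library rich in smooth muscle markers, far above the others. Its log2 fold changes of -1.97 ± 0.68 and -1.33 ± 0.67 did not pass, but without control a they were -2.69 and -2.05 and passed, and without control b they were -0.48 (adjusted p = 0.291) and 0.16 (adjusted p = 0.734), so the size of both values and the direction at D7 rested on control b. At D4 it also passed with the replicate block (adjusted p = 0.0427) and without the low-count filter. Itgb3 and Itgb5 had log2 fold changes between -0.40 and 0.35 at both days, none of 2-fold.

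The collagen-binding subunits had low to moderate levels. Itga10 (ENSRNOG00000021217, chr2:198772937-198792253), known from chondrocytes, had counts of 27 and 8 in the control group, 167 and 147 at D4, and 149 and 80 at D7, and all injured libraries were above both control libraries. It was upregulated at D4 (2.68 ± 0.52, adjusted p = 0.00826) and D7 (2.52 ± 0.52, adjusted p = 0.0129), and the D7 call was lost without D7 a (2.07, adjusted p = 0.05). The values rest on control counts of 27 and 8: without control a they were 3.65 at D4 and 3.49 at D7, and without control b 2.14 and 1.97.

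Itga1 (ENSRNOG00000053550, chr2:47127219-47281421), the alpha1 subunit of smooth muscle, vessels and fibroblasts, had counts of 2240 and 3599 in the control group, 2319 and 2469 at D4, and 1497 and 1930 at D7, with control b the highest. Its D7 value was -1.0 ± 0.30, adjusted p = 0.0438, again on the 2-fold line, and the call changed in 11 of 14 other settings. It was lost without control b (-0.48, adjusted p = 0.117), D7 a (0.187), D7 b (0.0605), D4 a (0.0838) or D4 b (0.0842), and without control a it was a DEG at D4 too (-1.22). The gene Pelo lies inside the span of Itga1. Itga2, its neighbour 30.3 kb away, had counts of 277 and 174 in the control group, 195 and 182 at D4, and 377 and 281 at D7. It was highest at D7, with D7 against D4 at 1.10 ± 0.22, adjusted p = 0.0502, which passed in 8 of the alternatives, among them without control a or control b. The difference did not pass without D4 a (1.23), D4 b (0.98), D7 a (0.91) or D7 b (1.26). Itga11 had counts of 340 and 530 in the control group, 536 and 270 at D4, and 85 and 274 at D7. Its D7 value of -1.50 ± 0.65 passed without D7 b alone (-2.63), and without D7 a it was -0.83.

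Itga4 (ENSRNOG00000004861, chr3:66193059-66263960), whose product binds VCAM-1 and fibronectin and is used by leukocytes and neural crest cells, had counts of 602 and 508 in the control group, 1288 and 1523 at D4, and 2217 and 1648 at D7. The 3 groups did not overlap, with D7 highest. Itga4 was upregulated 3.01-fold at D7 (1.59 ± 0.14, adjusted p = 0.000697), the D4 value was 0.82 ± 0.13, adjusted p = 0.00441, and the difference between D7 and D4 of 0.77 ± 0.13 had an adjusted p of 0.0375, under 2-fold; the adjusted p was 0.256 without D4 a, 0.217 without D4 b, 0.146 without D7 a and 0.0618 with the replicate block. Itga9, which binds tenascin-C, had FPKM of 9.82 and 18.4 in the control group, 15.1 and 18.1 at D4, and 27.6 and 22.9 at D7 and a D7 value of 0.55 ± 0.28 that passed without control b alone (1.05).

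Of the 6 leukocyte integrin subunits tested, 5 were upregulated at D4 and 5 at D7 (83.3%), against 11.2% and 9.83% of all genes tested. The median log2 fold changes of this class were 2.56 and 1.95, against -0.04 and 0.01 for all genes tested. Itgb2 (ENSRNOG00000001224, chr20:11777783-11815647), the beta subunit that Itgal, Itgam and Itgax share, had counts of 185 and 145 in the control group, 2337 and 1789 at D4, and 1443 and 1417 at D7. It was upregulated 8.85-fold at D4 (3.15 ± 0.20, adjusted p = 0.0002) and 7.54-fold at D7 (2.91 ± 0.20, adjusted p = 0.000407). Itgal (ENSRNOG00000017980, chr1:198744050-198781750), the alpha subunit of LFA-1, had counts of 196 and 138 in the control group, 1682 and 1803 at D4, and 1011 and 1136 at D7 and log2 fold changes of 2.88 ± 0.14 at D4 and 2.49 ± 0.14 at D7 (adjusted p = 0.000127 and 0.000332). For both genes every injured library was several times above both control libraries.

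Itgam (ENSRNOG00000019728, chr1:199495298-199623960), the CD11b chain of macrophages and granulocytes, had counts of 291 and 288 in the control group, 1814 and 2119 at D4, and 818 and 967 at D7. It was upregulated at D4 (2.24 ± 0.14, adjusted p = 0.00021) and less so at D7 (1.42 ± 0.14, adjusted p = 0.00109), and D7 was below D4 by a tested difference of -0.82 ± 0.14, adjusted p = 0.0349, under 2-fold. The adjusted p of that difference was 0.215 without D4 a, 0.221 without D4 b and 0.149 without D7 a. Itgax (ENSRNOG00000036703, chr1:199555722-199576932), the CD11c chain, had counts of 132 and 49 in the control group, 1358 and 849 at D4, and 491 and 653 at D7, with log2 fold changes of 3.14 ± 0.46 and 2.49 ± 0.46 (adjusted p = 0.00292 and 0.00843). The Itgax values were 3.88 and 3.22 without control a and 2.68 and 2.02 without control b. Itgax lies wholly inside the span given for Itgam, so fragments of the pair may have been assigned to either. Itgb7 (ENSRNOG00000012208, chr7:143820900-143837780), of gut-homing lymphocytes, had counts of 65 and 44 in the control group, 203 and 181 at D4, and 134 and 135 at D7 and was upregulated at D4 (1.32 ± 0.23, adjusted p = 0.00559) and D7 (1.11 ± 0.23, adjusted p = 0.0131), the latter lost without control b (0.95). Itgae, the CD103 chain, was not a DEG, with FPKM of 1.36 and 1.60 in the control group, 1.35 and 1.35 at D4, and 2.20 and 2.21 at D7, and 4 other genes lie within its span and 1 overlaps an end of it. The macrophage marker sum and the lymphocyte sum, most of it Cd4, were higher in the same libraries.

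The promoter regions of Itgam and Itgax are shown because these neighbouring genes both rose. Itgam (chr1:192089342-192089591, plus strand) held none of the 4 motifs, and Itgax (chr1:192149799-192150048, plus strand) held 1 AP-1 match in capitals.
Itgam: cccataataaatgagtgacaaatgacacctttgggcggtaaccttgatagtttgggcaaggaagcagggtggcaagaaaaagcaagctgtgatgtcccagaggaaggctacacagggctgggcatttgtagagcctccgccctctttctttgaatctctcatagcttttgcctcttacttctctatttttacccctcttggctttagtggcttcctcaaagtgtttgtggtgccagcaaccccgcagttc
Itgax: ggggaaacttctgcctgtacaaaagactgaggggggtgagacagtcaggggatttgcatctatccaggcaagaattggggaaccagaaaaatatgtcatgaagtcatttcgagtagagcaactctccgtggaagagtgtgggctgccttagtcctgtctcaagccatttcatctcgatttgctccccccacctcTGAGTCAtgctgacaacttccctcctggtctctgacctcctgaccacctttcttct
PU.1 letters, found in 2.04% of all promoters, were in Itga11, Itgav and Itgb6 and in none of the leukocyte subunits with an entry (Itgam, Itgax, Itgae and Itgb7).

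Type IV collagen forms the other sheet of the basement membrane. Of 6 basement membrane collagen genes tested, 5 were downregulated at D4 and 4 at D7, against 10.7% and 9.02% of all genes tested, and Col18a1 was upregulated at both days. The median log2 fold changes were -1.41 and -1.46, against -0.04 and 0.01 for all genes tested. Col18a1, which encodes the collagen XVIII of basement membranes, had log2 fold changes of 1.91 ± 0.24 and 2.05 ± 0.25. Col4a5 had -1.76 ± 0.40 and -2.01 ± 0.41, and Col4a4 -1.62 ± 0.22 and -2.07 ± 0.23. Col4a1, the highest of the 6 in FPKM in both control libraries, had counts of 53153 and 47714 in the control group, 32368 and 30477 at D4, and 23175 and 26620 at D7. Of 10 other basement membrane components, 20% were downregulated at D4 and 40% at D7, against 10.7% and 9.02% of all genes tested. The share upregulated was 0% at D4 and 10% at D7, against 11.2% and 9.83%. The medians of this list were -0.89 and -0.65. Smoc1 and Fbln2 were downregulated at both days (-2.85 ± 0.42 and -1.03 ± 0.15 at D4), Npnt and Papln at D7 alone, and Smoc2 was upregulated at D7 (1.04 ± 0.25).

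Of 24 tested genes for integrin activators, inhibitors, adaptors and kinases, 2 (8.33%) were upregulated and 3 (12.5%) downregulated at each day, against 11.2% and 10.7% of all genes tested at D4 and 9.83% and 9.02% at D7, and the medians were 0.11 at D4 and -0.07 at D7. Parvg and Fermt3, the parvin and kindlin of blood cells, rose (3.35 ± 0.19 and 2.01 ± 0.20 at D4), and Tns1, Lims2 and Kank1 fell (-1.83 ± 0.23, -1.80 ± 0.09 and -1.62 ± 0.44). Of 8 other laminin receptors, 12.5% were downregulated at D4 and 25% at D7, against 10.7% and 9.02% of all genes tested, and 0 were upregulated. Their medians were -0.66 and -0.24, against -0.04 and 0.01 for all genes tested. Bcam, the Lutheran antigen that binds the alpha5 chain, was downregulated at both days (-1.21 ± 0.21 and -1.41 ± 0.21) and Cspg4 at D7. Among 7 tested ligands other than laminin, 42.9% were upregulated and 28.6% downregulated at D4, against 11.2% and 10.7% of all genes tested. The shares at D7 were 14.3% and 28.6%, against 9.83% and 9.02%, and the medians were 0.51 at D4 and 0.47 at D7. Tnc (tenascin-C), Thbs1 (thrombospondin-1) and Fn1 (fibronectin) rose at D4, by 2.48 ± 0.20, 1.86 ± 0.21 and 1.35 ± 0.13. Vtn (vitronectin) and Vcam1 fell at D4, with -2.16 ± 0.18 and -1.44 ± 0.23. At D7 Tnc alone of the 7 was upregulated, Vtn was again downregulated (-2.43 ± 0.18), and Spp1 (osteopontin) was below both the control group (-1.93 ± 0.31) and D4 (-1.71 ± 0.31).

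The lncRNA table gave a second readout at the same loci. Of 22721 lncRNA transcripts, 54 overlapped 24 of the 39 genes, 50 of them wholly within a gene, and 29 were tested. At D4, 3 of the 29 were DElncRNAs, and at D7, 2 were. Both counts lie near the share of all tested lncRNAs, 10.1% at D4 and 5.79% at D7. The counting may have split fragments between a gene and a lncRNA inside it, since the use of strand was not stated.

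NONRATT025434.2 (chr6:147171517-147172348) lies within Itgb8. Its counts were 61 and 56 in the control group, 1047 and 1268 at D4, and 626 and 990 at D7. It was upregulated at D4 (4.14 ± 0.29 (SE), adjusted p = 0.00239) and at D7 (3.69 ± 0.28, adjusted p = 0.00512), calls that held in every alternative run, and at both days Itgb8 itself rose. MSTRG.17885.1 (chr3:66195487-66203124), within Itga4, had counts of 159 and 143, 245 and 230, and 436 and 394 in the 3 groups, and was upregulated at D7 (1.36 ± 0.18, adjusted p = 0.0183). That call was lost on leaving out any of the 6 libraries, with log2 values of 1.3 to 1.42 and adjusted p-values of 0.0514 to 0.108.

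NONRATT024199.2 (chr6:50595506-50596106), which overlaps one end of Lamb1, had counts of 81 and 68 in the control group, 21 and 24 at D4, and 67 and 65 at D7. It was downregulated at D4 (-1.88 ± 0.24, adjusted p = 0.0102) and its D7 value was -0.27 ± 0.22, so its D4 libraries alone lay below the rest, as for Lamb1. The call was lost without D4 a or D4 b (adjusted p = 0.0832 and 0.0825). NONRATT006257.2 (chr10:104558182-104558638), within Itgb4, had counts of 159 and 130, 40 and 74, and 116 and 80, and was downregulated at D4 (-1.52 ± 0.33, adjusted p = 0.0451). This call was lost on leaving out any of the 6 libraries (adjusted p between 0.0751 and 0.180), with the replicate block (0.0893) and without TMM factors (0.0561).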

How the data were processed

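The sciatic nerve RNA of 6 rats was sequenced by the authors as ribosome-depleted libraries. According to the study's methods and processing notes, reads were mapped with HISAT2 2.0.4 (Rnor_6.0), transcripts were assembled with StringTie 1.3.0, and the deposited counts are whole fragment numbers for each gene or lncRNA transcript. The study's methods name TMM normalisation ahead of FPKM, whereas the mRNA FPKM values deposited by the authors scale between libraries with the library totals and not with totals scaled by the TMM factors computed here. They were used only for levels. Whether the counting used strand is not given in the sources used here.

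Low counts were removed with filterByExpr, TMM factors (0.863 to 1.08) were applied, and the groups were tested with glmQLFit and glmQLFTest of edgeR 4.0.16 in R 4.3.3, with group alone in the model, all 6 libraries in 1 fit, and Benjamini-Hochberg adjustment over all genes tested. The SE is the absolute log2 fold change over the square root of F. The common biological coefficient of variation was 0.181. The code was tested on simulated data. The p-values rest on 2 rats in each group.

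Some genes of these lists are not reported here and enter no count or sum over a list. Every other gene chosen by symbol is accounted for: DEGs with all counts, the others by FPKM or ranges. From each related list the 3 DEGs largest at D4 are named, and other DEGs of these lists were picked with their values known. The genes and lists were chosen with earlier results of these data known. Promoter sequences and coordinates come from RefSeq (GRCr8). The alternatives were fits of 2 groups, the library letter as a replicate block, DESeq2 1.42.0, other scalings, filters and thresholds, and leaving out each library. The same-letter deviations correlated at 0.01 (control and D4), 0.19 (control and D7) and -0.13 (D4 and D7). Whether libraries of the same letter shared a batch is not stated in the sources used here, and these values do not settle it. Tables and figures were made with Python 3.11.15, pandas 2.3.3 and matplotlib 3.10.9.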

Additional observations from a re-analysis of the deposited data

Results flagged for a closer look

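For 4 genes the effect at D4 differed from that at D7 by the direct test in edgeR. Itga3 was lower at D7 than at D4 (log2 fold change -1.08, adjusted p = 0.0452), and so was Itgam (-0.82, adjusted p = 0.0349). Lama2 (0.85, adjusted p = 0.0422) and Itga4 (0.77, adjusted p = 0.0375) were higher at D7. Of these 4 genes, Itga3 alone reached 2-fold. Each of these differences missed the threshold when D4 a, D4 b or D7 a was left out. The Lama2 value lay between 0.65 and 1.01 over all alternatives. In the fits without D4 a, D4 b and D7 a, Itga3 had log2 values of -1.06, -1.10 and -0.87. In the same order, Itgam had -0.86, -0.79 and -0.68, and Itga4 had 0.72, 0.81 and 0.57. Over those 3 fits the adjusted p ran from 0.170 to 0.277 for Lama2, 0.179 to 0.255 for Itga3, 0.146 to 0.256 for Itga4 and 0.149 to 0.221 for Itgam. Without D4 a or D4 b, 0 of all genes tested were DEGs between the days in edgeR, while 2054 and 2296 had an unadjusted p under 0.05.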

How the results depend on the processing

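Tested against a 2-fold change, 7 genes passed at D4, 5 at D7 and 0 between D7 and D4. Of all 15195 genes tested, 1683, 1217 and 37 passed that test. Without a fold threshold 22, 21 and 4 of the 38 genes passed. The share of all genes at that setting is not given here, so these counts cannot be set beside it. In the main edgeR fit, 25, 22 and 14 of the 38 genes had an unadjusted p under 0.05. For all genes tested these counts were 8088, 7361 and 3754. The test against 2-fold left Itgal, Itgam, Itgb2 and Itgb8 at both days, Itga10, Itgax and Itgb4 at D4 and Itga4 at D7. Between D7 and D4, 2 genes (Itga3 and Itga2) passed in the fit of the 2 groups, in DESeq2, without the low-count filter and with at least 10 counts in every library. In those 4 settings 309 to 521 of all genes tested passed. Without TMM factors Itga2 alone passed, and 334 of all genes did. With the replicate block, 12, 11 and 2 genes passed in the 3 comparisons, against 3281, 2827 and 248 of all genes tested. With D4 a and D4 b swapped in that block (a choice made after seeing the data) 12, 12 and 1 passed, against 3364, 2907 and 334. A fit without 1 library holds 1 library in a group, and log2 values from such fits are given with the genes above. Without TMM factors the median of all genes moved to 0.25 at D4 and 0.31 at D7, and the calls to 10 higher and 3 lower at D4 and 10 higher and 1 lower at D7, while 16% and 7.09% of all genes were then higher and lower at D4 and 14.6% and 6.12% at D7. The genes gained without TMM factors were Agrn, Itga4 and Itga7 at D4 and Itga7 at D7. No called gene changed direction in any alternative. The cause of these differences was not tested.

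The groups hold 2 rats each, so a fold change rests on 2 values an arm, and calls near 2-fold (Lama2, Lama5, Itga1) change with small choices. A gene left out of the calls cannot be taken as unchanged. Lama1, Lamb3, Itga2b and Itgb6 had fewer than 100 counts in each library, and changes there were poorly measured at this depth. The crush and control groups also differ in cell type markers, and bulk RNA cannot separate cell numbers from expression within a cell.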
